A study of Mus musculus with 2 samples.

Results

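The cyclin-dependent kinase (CDK) inhibitors of the INK4 and CIP/KIP families were followed in the pancreatic islets of RbΔK7 knock-in mice, whose retinoblastoma protein (Rb) resists phosphorylation, and of control mice. The 7 genes are the INK4 genes Cdkn2a, Cdkn2b, Cdkn2c and Cdkn2d and the CIP/KIP genes Cdkn1a, Cdkn1b and Cdkn1c. They were chosen by gene symbol, and every gene probe on the array whose annotated symbol was one of these was taken, which gave 12 of 55681 probes for 7 of 34844 annotated gene names. Each of 2 two-colour Agilent arrays, on 1 slide, carried 1 RbΔK7 islet sample in Cy5 (red) and 1 control islet sample in Cy3 (green), so the data were 2 samples of each genotype and 2 log2 ratios of RbΔK7 over control per probe. Islets were freed with collagenase, picked by hand and frozen at once, and the samples were harvested independently per the series' design text. Age, strain, any allele other than the knock-in and the number of mice behind each sample are not given in the sources used here. Dyes were not exchanged between genotypes, so for any 1 probe the effects of genotype and of dye cannot be told apart. In islet RNA, fewer cells of a type and less RNA per cell also cannot be told apart.

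INK4 proteins bind CDK4 and CDK6 and keep them from pairing with D-type cyclins. CIP/KIP proteins bind whole cyclin and kinase complexes and block CDK2 in particular. Both families thereby hold Rb in its unphosphorylated, E2F-binding state, and RbΔK7 lies downstream of them. In mouse islets p16INK4a, a product of Cdkn2a, is known to accumulate with age, and p18INK4c (Cdkn2c) and p27KIP1 (Cdkn1b) are known to restrain beta cell division.

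The probes show which stretch of each transcript was read, so those that the results turn on are printed here, 5′ to 3′, as the scanner files give them and with no base marked. All are 60 bases long. The first 3 are the INK4 probes that could be tested, and the last 3 are all the probes of Cdkn1a, of which only the 1 at base 1619 could be tested.
Cdkn2c: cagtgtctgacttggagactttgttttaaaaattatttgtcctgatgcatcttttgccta
Cdkn2b: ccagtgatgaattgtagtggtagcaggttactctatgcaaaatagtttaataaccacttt
Cdkn2d: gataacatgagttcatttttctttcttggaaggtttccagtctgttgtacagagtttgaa
Cdkn1a, base 1619 of its transcript: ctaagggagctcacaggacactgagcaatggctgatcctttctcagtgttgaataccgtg
Cdkn1a, base 147 of its transcript: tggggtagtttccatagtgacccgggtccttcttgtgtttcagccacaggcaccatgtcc
Cdkn1a, base 55 of its transcript: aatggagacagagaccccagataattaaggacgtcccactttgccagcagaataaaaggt

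On mm9, the build of the file headers, the Cdkn2c probe lies on chromosome 4 from 109333508 to 109333567, and that of Cdkn2b on chromosome 4 from 88952276 to 88952335. The Cdkn2d probe lies on chromosome 9 from 21092934 to 21092993. The Cdkn1a probes lie on chromosome 17, from 29237377 to 29237436, from 29235299 to 29235358 and from 29227986 to 29228045 in the order printed. The tested probes of Cdkn1b lie on chromosome 6 from 134875424 to 134875483 and from 134873606 to 134873665, and that of Cdkn1c on chromosome 7 from 150644753 to 150644812. Their place within exons or UTRs was not analysed here.

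Of the 12 probes, 7 were tested, and these 7 were well above background in all 4 samples. They cover 6 of the 7 genes. A probe was tested when its signal was well above background in at least 1 channel on both arrays, which 22266 probes were. The median log2 ratio of the tested probes was 0.020 for replicate 1 and 0.023 for replicate 2. Of gene spots, 41.0% and 48.2% were well above background in the RbΔK7 channels and 37.0% and 38.1% in the control channels. None was saturated, and having only 2 arrays sets the precision.

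None of the 7 tested probes passed limma's test at an adjusted p under 0.05, and 1 of them, Cdkn2c, was under 0.05 before adjustment, as were 11.4% of all tested probes, so 1 of 7 is near the share of the whole array. Over all tested probes 0.368% passed as higher and 0.0135% as lower in RbΔK7. The 3 INK4 probes (Cdkn2b, Cdkn2c and Cdkn2d) were lower in RbΔK7 on both arrays, as were 25.3% of all tested probes. Among the 4 CIP/KIP probes, those of Cdkn1c and 1 of the 2 of Cdkn1b were higher on both arrays, as were 32.3% of all tested probes, and the other 2 had opposite signs on the arrays. With 2 arrays an exact sign-flip test of a single probe cannot give a p below 0.5, so limma's test draws on the variance of the whole array.

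**Figure D1:**
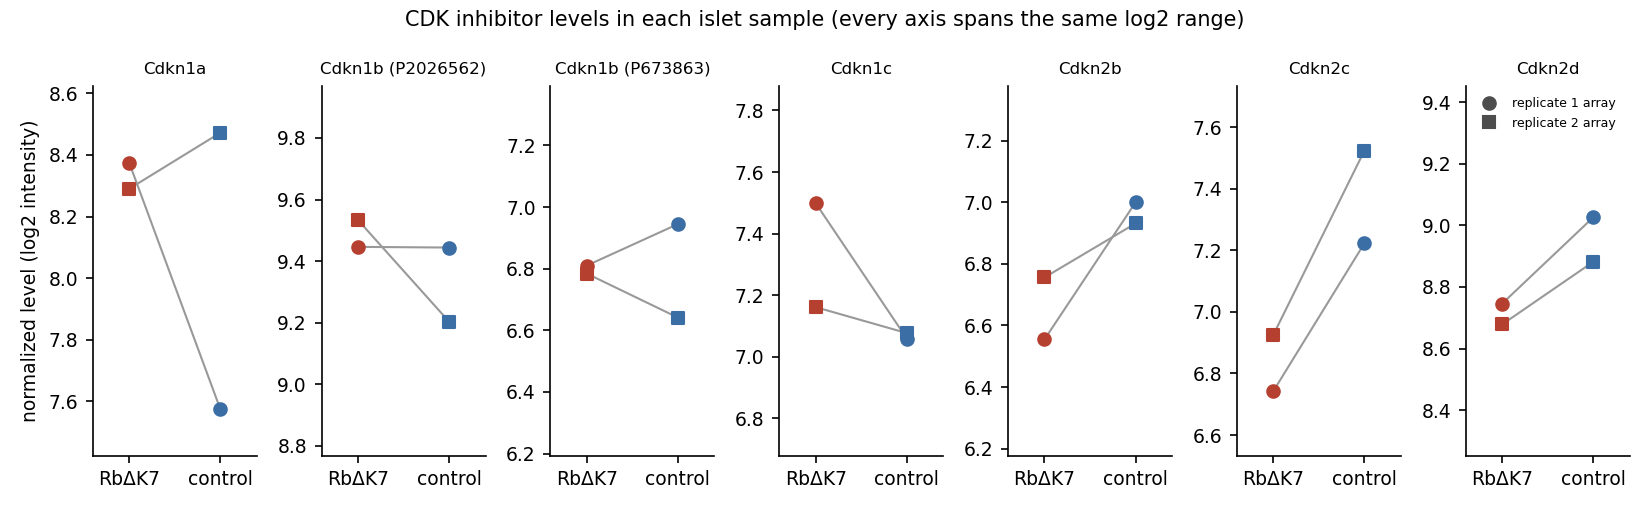
Normalized log2 intensity (vertical axes, all spanning the same range) of the 7 tested probes in the 2 RbΔK7 samples (red) and the 2 control samples (blue), with a line joining the samples of 1 array. The RbΔK7 samples lie below both controls for Cdkn2b, Cdkn2c and Cdkn2d, while for Cdkn1a the control samples, at 7.58 and 8.47, lie farthest apart.

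Cdkn2c encodes p18INK4c. On the normalized log2 scale its levels were 6.74 and 6.93 in the RbΔK7 samples of replicates 1 and 2, against 7.22 and 7.52 in the control samples. Both RbΔK7 samples thus lay below both controls, an order shown by all 3 tested INK4 probes and by 15.6% of all tested probes. The log2 ratios were -0.48 and -0.60, averaging -0.54 ± 0.083 (SD, n = 2) with a 95% interval of -0.87 to -0.21, which is 1.45-fold lower in RbΔK7 (limma adjusted p = 0.229). Among all tested probes, 1.87% had a lower mean ratio. With the background offset alone changed, to 0, the mean ratio was -0.91 (limma adjusted p = 0.214). In Agilent's processed intensities Cdkn2c had 74.0 and 147 units in the RbΔK7 samples, against 167 and 301 in the controls, which is 2.26-fold and 2.05-fold lower. These signals also differ in background correction, detrending and dye normalization. Their mean log2 ratio was -1.10, and it also did not pass (limma adjusted p = 0.299).

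Cdkn2b encodes p15INK4b, an inhibitor known as a target of TGF-beta signalling. Levels on its tested probe were 6.55 and 6.76 in RbΔK7, against 7.0 and 6.93 in control islets. The groups did not overlap, and the 2 arrays differed in the size of the gap. The log2 ratios were -0.45 and -0.18, a mean of -0.31 ± 0.19 (SD, n = 2) with a 95% interval of -0.66 to 0.04 (limma adjusted p = 0.497). In Agilent's processed intensities it was 2.38-fold lower on the replicate 1 array and 1.31-fold lower on the replicate 2 array. The second probe of Cdkn2b was not well above background in any of the 4 samples. Its levels were 6.06 and 6.20 in RbΔK7, against 6.12 and 5.99 in control islets. The tested probe was thus dim, with levels little above these. The RbΔK7 levels of Cdkn2c, 6.74 and 6.93, lay in the same range as the tested Cdkn2b probe.

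Cdkn2d encodes p19INK4d. Levels were 8.75 and 8.68 in RbΔK7, against 9.03 and 8.88 in control islets, again without overlap. Its log2 ratios of -0.28 and -0.20 gave a mean of -0.24 ± 0.054 (SD, n = 2) with a 95% interval of -0.57 to 0.084 (limma adjusted p = 0.574). The mean is 1.18-fold lower in RbΔK7.

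Cdkn2a gives rise to p16INK4a and, from another first exon and reading frame, to ARF, which restrains MDM2. Its 2 probes (chromosome 4, 88920405 to 88920464 and 88920543 to 88920602, mm9) are listed against 2 RefSeq transcripts of the gene each, so they do not separate its products. Neither was well above background in any of the 4 samples, and no ratio or fold is given for them. Whether Cdkn2a differs between the genotypes was therefore not detectable with these probes.

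Cdkn1a encodes p21CIP1, a p53 target, and its tested probe was spotted 10 times on each array. Levels were 8.38 and 8.29 in RbΔK7, against 7.58 and 8.47 in control islets. The 2 RbΔK7 samples differed by 0.086 and the 2 controls by 0.90 on the log2 scale, so the controls enclosed the RbΔK7 samples. The log2 ratios were 0.80 and -0.18, a mean of 0.31 ± 0.69 (SD, n = 2) with a 95% interval of -0.28 to 0.90 (limma adjusted p = 0.701).

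The ratios of the 10 spots ran from 0.66 to 0.95 (median 0.77) on the replicate 1 array and from -0.34 to -0.09 (median -0.17) on the replicate 2 array. All spots were above 0 on the first and below 0 on the second, with spot SDs of 0.099 and 0.080. Spots of 1 array share their RNA, labelling and hybridization and are not replicates of the genotype, so their spread does not cover error between arrays.

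**Figure D2:**
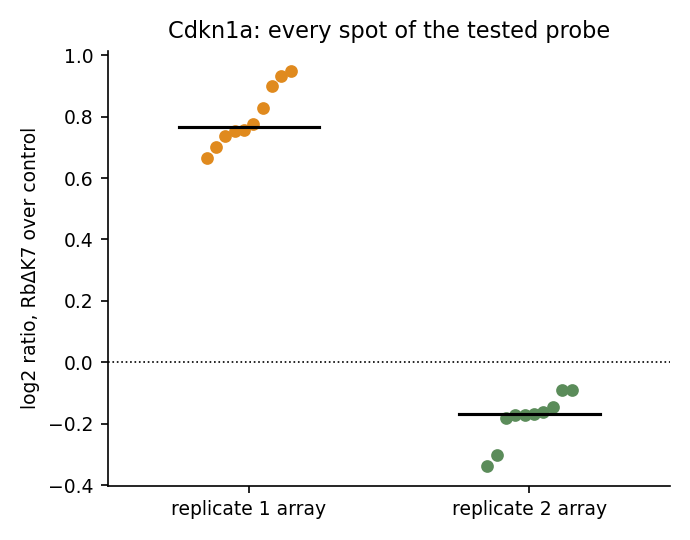
Log2 ratio of RbΔK7 over control (vertical axis) for each of the 10 spots of the tested Cdkn1a probe on the 2 arrays, with a bar at the median. The spots lie between 0.66 and 0.95 on the replicate 1 array and between -0.34 and -0.09 on the replicate 2 array.

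The probes of Cdkn1a at bases 147 and 55 of their transcripts could not be tested. The probe at base 147 was not well above background in any sample. The probe at base 55 was well above background in 1 of 4 samples, the RbΔK7 sample of replicate 2. No lower bound above 1-fold could be set for it.

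Cdkn1b encodes p27KIP1. Its probe on chromosome 6 from 134875424 had levels of 9.45 and 9.53 in RbΔK7, against 9.44 and 9.20 in control islets, and log2 ratios of 0.002 and 0.33. Their mean was 0.17 ± 0.23 (SD, n = 2), at a limma adjusted p of 0.746. The RbΔK7 sample and the control sample of replicate 1 were level with each other. The other probe, which is listed against 1 of the Ensembl transcripts of the first and not against its RefSeq record, had 6.81 and 6.78 in RbΔK7, against 6.94 and 6.64 in control islets. Its ratios of -0.13 and 0.14 averaged 0.004 ± 0.20 (SD, n = 2), with a 95% interval of -0.35 to 0.36 and a limma adjusted p of 0.994. This other probe was dim, with levels little above those of the inhibitor probes that could not be tested.

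Cdkn1c encodes p57KIP2, which in mouse is expressed from the maternal allele, and whose loss in humans accompanies focal overgrowth of beta cells. Levels were 7.5 and 7.16 in RbΔK7, against 7.06 and 7.08 in control islets. Both RbΔK7 samples lay above both controls, as they did for 22.2% of all tested probes and for 1 of the Cdkn1b probes. The log2 ratios were 0.44 and 0.084, a mean of 0.26 ± 0.25 (SD, n = 2) with a 95% interval of -0.11 to 0.63 (limma adjusted p = 0.593).

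**Figure D3:**
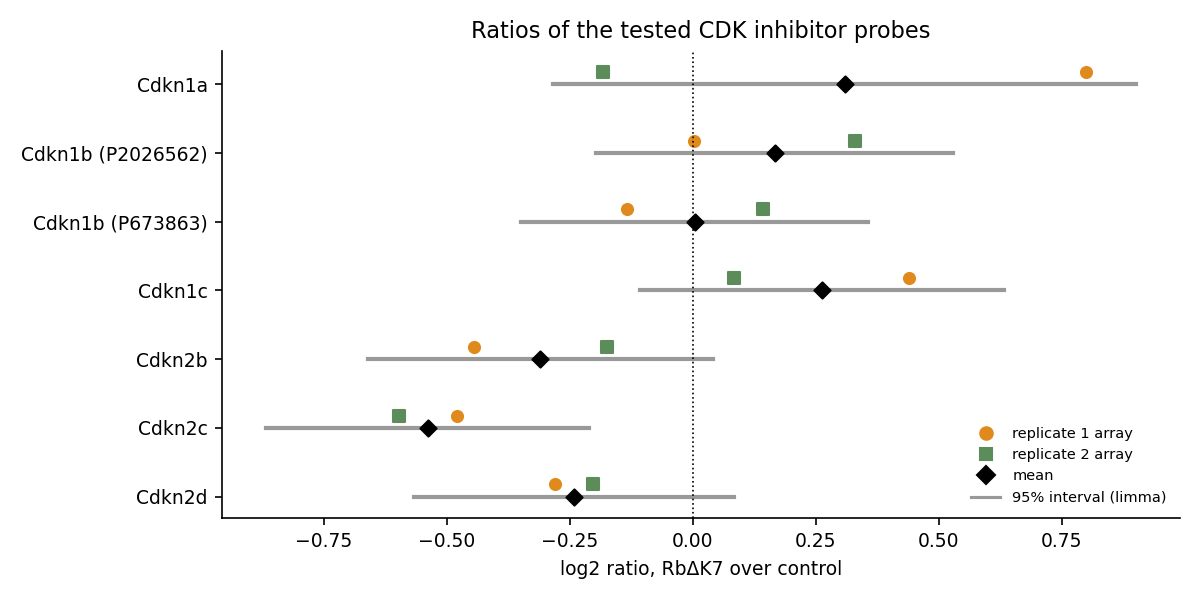
Log2 ratios of RbΔK7 over control (horizontal axis) of the 7 tested probes on the replicate 1 array (circles) and the replicate 2 array (squares), with the mean (diamonds) and limma's 95% interval (bars). The interval lies to 1 side of 0 for Cdkn2c alone, from -0.87 to -0.21, and these intervals are not adjusted for the number of probes.

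The centring of the arrays bears on the direction of 2 of these genes. Loess sets the typical ratio to 0 at each brightness. With median centring of each array in its place, the median ratio of the tested probes was 0.39 for replicate 1 and 0.84 for replicate 2. In that setting the mean ratios were 0.008 for Cdkn2b, 0.54 for Cdkn2d and -0.10 for Cdkn2c, so Cdkn2b and Cdkn2d changed sign. Relative to the median of all tested probes there (0.62), Cdkn2c stood at -0.72, Cdkn2b at -0.61 and Cdkn2d at -0.08, while Cdkn1a stood at 0.39 and Cdkn1c at 0.098. Relative to that median the Cdkn1b probes stood at 0.37 and -0.32.

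**Figure D4:**
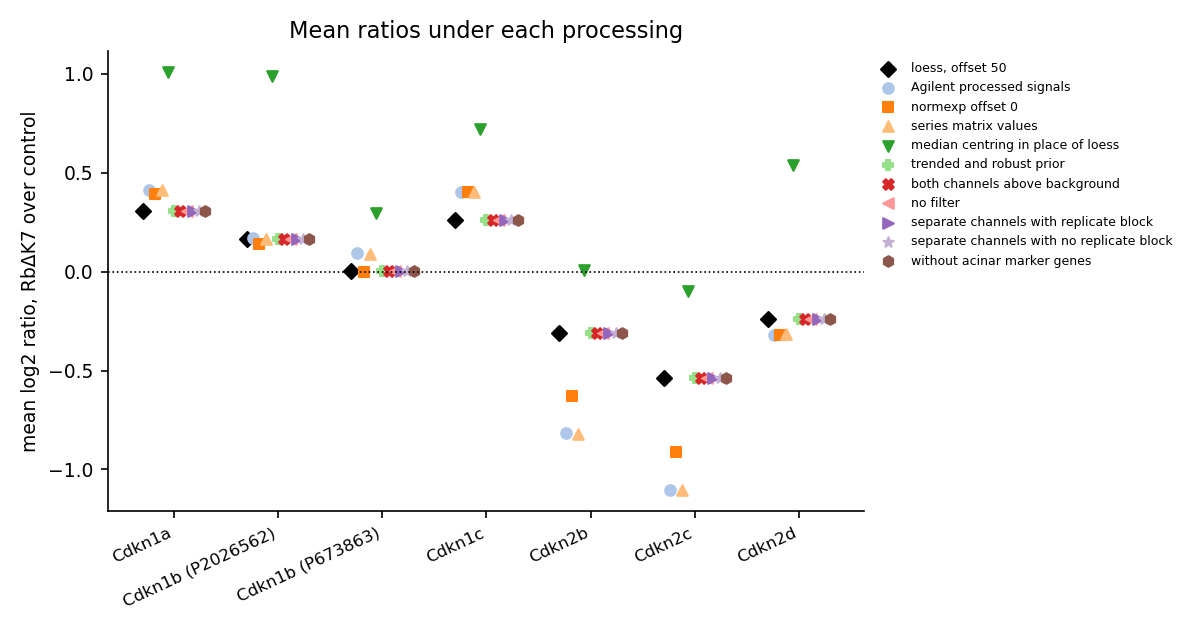
Mean log2 ratio of RbΔK7 over control (vertical axis) of the 7 tested probes under each processing. Median centring (downward triangles) lifts every probe, Cdkn2d to 0.54, and the settings without the offset place Cdkn2c lowest, at -1.10 with Agilent's processed signals.

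Genes around the inhibitors were described from 8 lists, of which 85 of 109 genes were tested. Among these, 0 passed as higher and 1 as lower in RbΔK7 over all probes, while 44 were higher and 15 lower on both arrays. Over all tested probes, the array-wide share against which each list is read, 0.368% passed as higher and 0.0135% as lower, and 32.3% were higher and 25.3% lower on both arrays. In the list of CDK and cyclin partners, 3 of 9 tested genes were higher and 2 lower on both arrays, and the list's medians were 0.021 and 0.017. The list holds 14 genes. Those with no tested probe were Cdk1, Cdk2, Cdk6, Ccna2 and Ccne2, so the list does not cover 2 main kinases that the inhibitors bind, CDK2 and CDK6. Ccnd1, the cyclin D1 gene, had ratios of 0.64 and 1.2 (limma adjusted p = 0.133), and Ccnd3 of 0.10 and 0.060. Cdk7, a kinase that activates other CDKs, had a mean of -0.24 and its cyclin gene Ccnh of -0.15.

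Genes for the breakdown of CIP/KIP proteins had medians of 0.058 and 0.068 over 11 genes, with 4 higher and 2 lower on both arrays. Cks1b, a cofactor in the marking of p27KIP1 for destruction, had ratios of 0.98 and 0.64 (limma adjusted p = 0.125). Pcna, a replication clamp that binds p21CIP1, had ratios of 0.39 and 0.42. Rnf123 and Ubac1, which together form a ligase for p27KIP1, had means of -0.18 and -0.03.

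Chromatin regulators of the Ink4/Arf locus had medians of -0.07 and 0.036, where 6 of 13 tested genes were higher and 5 lower on both. Men1, which encodes menin, known in mouse islets to sustain Cdkn1b and Cdkn2c expression, had ratios of -0.33 and -0.70 (limma adjusted p = 0.299). Its levels were 10.92 and 10.29 in RbΔK7, against 11.25 and 10.99 in control islets. Both RbΔK7 samples thus lay below both controls, as they did for 15.6% of all tested probes. The mean ratio was -0.54 for Cdkn2c, and 0.17 and 0.004 for the 2 Cdkn1b probes. A link of these values to Men1 was not tested. The Polycomb genes Rnf2 and Suz12 had means of 0.44 and 0.20, and Pcgf2 a mean of -0.21.

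The list of transcription factors that act on the inhibitor genes, which also holds Mdm2, Mdm4 and Id1, had medians of 0.21 and 0.24. Of its 16 tested genes, 11 were higher and 1 lower on both. Smad3, a carrier of TGF-beta signals, had ratios of 0.36 and 0.62, and Foxo3, an activator of Cdkn1b, of 0.48 and 0.50. Mdm4, a p53 inhibitor, had a mean of -0.12. In the list of the Rb, E2F and ARF network, 9 of 12 were higher and 1 lower on both, and the array medians were 0.43 and 0.18. The mean was 0.95 for E2f1 (limma adjusted p = 0.0647), 0.59 for Rbl1 and -0.04 for E2f5. Senescence-associated genes had medians of 0.12 and 0.29, where 5 of 11 tested genes were higher and 0 lower on both, among them Igfbp5 (0.42 and 1.35) and Igfbp3 (0.86 and 0.76).

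**Figure D5:**
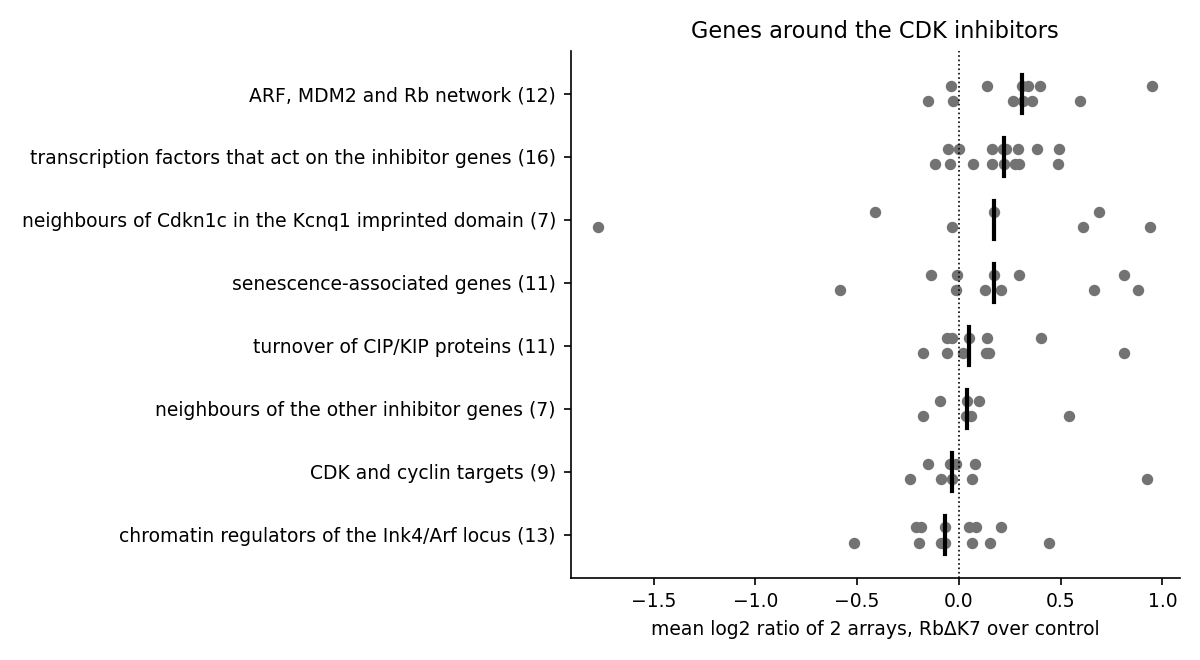
Mean log2 ratio of RbΔK7 over control (horizontal axis) of each tested gene (points) in 8 gene lists, with the number of tested genes in brackets and a bar at the list's median. The isolated point at -1.77 is Trpm5, the 1 gene of these lists that passed the test, and the list medians lie between -0.07 and 0.31.

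Cdkn1c lies in the imprinted Kcnq1 domain of chromosome 7, where 4 of 7 tested neighbours were higher and 3 lower on both arrays. Trpm5, a cation channel gene, fell, with levels of 8.65 and 8.06 in RbΔK7, against 10.37 and 9.89 in control islets. Its log2 ratio averaged -1.77 ± 0.077 (SD, n = 2), at a limma adjusted p of 0.0262. No probe passed, Trpm5 included, with Agilent's processed signals or an offset of 0. Kcnq1ot1, the antisense RNA that silences the domain on the paternal allele, had ratios of -0.40 and -0.42 (limma adjusted p = 0.327). Cd81, which encodes a tetraspanin, had a mean of 0.94 and the channel gene Kcnq1, which overlaps Kcnq1ot1, a mean of 0.69. Next to the other inhibitor genes, Slc44a2, near Cdkn2d, had a mean of 0.54, Faf1, beside Cdkn2c, of 0.097, and Gpr19, beside Cdkn1b, of -0.18, and 0 of these 7 tested neighbours passed.

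The genes nearest to Cdkn2c in their pattern over the 4 samples, by Euclidean distance of levels centred on each gene's own mean, were a transcript listed only as ENSMUST00000051089 (0.079), 4930481B07Rik (0.106) and Glt1d1 (0.120), out of 17104 tested genes. With 4 samples such a likeness is a description only.

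Promoter windows of 300 bases, from 250 before to 50 after a gene's start (RefSeq, GRCm38.p6), were given for 6 of the 7 genes, 9 windows in all. They were searched on both strands for the E2F-like words TTCCCGC, the word TTCGCGC, the word TTGCCGC or the word TTGGCGC. A word was found in 2 of the 9 windows, 1 of Cdkn2a and 1 of Cdkn2c, and in 9.57% of all 32851 windows. In these 2 windows 77.0% and 73.3% of bases were G or C, against a median of 52.7% over all windows. Each of the 2 genes also had another window, with no word. The Cdkn2c window (chr4:109666707-109667006, minus strand) is printed because this gene had the lowest ratio, with the word, which begins 25 bases before the start, in capitals. A match is not a shown binding site.
Cdkn2c window: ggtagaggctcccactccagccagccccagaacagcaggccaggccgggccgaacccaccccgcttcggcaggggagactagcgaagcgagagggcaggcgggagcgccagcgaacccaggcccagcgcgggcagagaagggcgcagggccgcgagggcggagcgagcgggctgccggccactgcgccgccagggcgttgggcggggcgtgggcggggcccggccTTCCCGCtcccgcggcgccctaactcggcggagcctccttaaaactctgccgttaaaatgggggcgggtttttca

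Other cell types also differed between the samples. All 8 stromal markers were higher in RbΔK7 on both arrays, with summed normalized intensities of 10962 and 29027 in RbΔK7, against 1894 and 7793 in control islets. The 8 acinar markers summed to 990061 and 88703 in RbΔK7, against 705149 and 1830340 in control islets. The control sample of replicate 2 thus had the most acinar RNA and the RbΔK7 sample of replicate 2 the least. The 8 beta cell markers summed to 411185 and 676848 in RbΔK7, against 509410 and 342181 in control islets, and 0 of them had 1 sign on both arrays. Duct markers were higher on both arrays for 5 of 6 tested genes, endothelial for 4 of 6, leukocyte for 3 of 5, nerve for 4 of 4 and other endocrine for 5 of 7. Of all tested probes, 32.3% were. Summed, the duct, nerve and other endocrine markers were higher in RbΔK7 on both arrays. The endothelial sums were lower on both (8060 and 7357, against 8591 and 7799), with Kdr at -0.28 and -0.88. The leukocyte sums were 7842 and 7895 in RbΔK7, against 8655 and 6800 in control islets. Most of each leukocyte sum came from the Itgam probe, at log2 levels of 12.72 and 12.73 in RbΔK7, against 12.89 and 12.56 in control islets. These sums therefore say little about the other leukocyte markers. The part of these cell types in the inhibitors' values was not tested.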

How the data were processed

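RNA of 4 islet samples was measured on 2 two-colour arrays. Per the submitters' processing notes, the scans were quantified by Agilent Feature Extraction (version 10.7.3.1). The deposited intensity values are mean spot signals with median local backgrounds, and processed signals that the software had background-corrected, detrended and dye-normalized, per the file headers. The deposited log10 ratios are of red (RbΔK7) over green (control) processed signals, per the file headers, and the series matrix holds the same values (largest difference 0, column medians 0 and 0). The deposited p-values of single log ratios, per the file headers, were not used.

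Backgrounds were corrected by normexp (offset 50) and ratios normalized by loess (span 0.3, control spots at weight 0) with limma 3.58.1 in R 4.3.3. Outlier spots (4 gene spots per array) were left out, and spots of 1 probe averaged. A two-sided test of ratios against 0 used lmFit and eBayes, and p-values were adjusted by Benjamini and Hochberg's method over 22266 probes (threshold 0.05). Samples are paired by array. With 2 arrays the residual degrees of freedom number 1 per probe, and eBayes brings 4.90 more from all probes. The step was tested on simulated data. Levels are channel values after quantile scaling of average brightness between arrays. Log2 ratios of dim probes are understated by the offset.

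Genes were named by accession (26762 probes), symbol (3819) or synonym (634), and the brightest tested probe stood for a listed gene. All 12 probes of the 7 genes are reported. From each list the text gives values of genes that passed and of up to 2 with the highest and 2 with the lowest mean among those of 1 sign. The genes and lists were chosen with earlier results of these data known.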

Additional observations from a re-analysis of the deposited data

How the results depend on the processing

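Under 9 other settings and without the acinar marker genes (a setting added after the data were seen), no inhibitor probe passed except with median centring. There Cdkn1a (mean log2 ratio 1.01, limma adjusted p = 0.0185) and the first Cdkn1b probe (0.99, limma adjusted p = 0.0206), of 7 tested inhibitor probes, passed. So did 6735 of all 22266 tested probes, 6664 of them higher and 71 lower in RbΔK7. In that setting Cdkn2b (0.0082) and Cdkn2d (0.54) turned positive. With an offset of 0 the other Cdkn1b probe was at -0.0031. Cdkn2c was below 0 in all 10, from -1.10 to -0.10, with limma adjusted p from 0.111 to 0.810. These are not 10 separate checks of its sign. Settings that changed only the test or the set of probes kept its mean ratio at -0.54. The series matrix values and Agilent's processed signals hold the same ratios. Only those signals, the offset of 0 and median centring could change its sign. Its ratio was -0.60 without replicate 1 and -0.48 without replicate 2, while Cdkn1a had -0.18 and 0.80, values with no test. Of all probes, 0 passed with Agilent's processed signals, an offset of 0, the series matrix values, a trended and robust prior, or separate channels with or without the replicate block, and 355 with no filter. With the replicate block Cdkn2c had limma adjusted p = 0.449. The cause of these differences was not tested. The medians of the gene lists were between 0.62 and 1.05 with median centring, against -0.07 and 0.31 with loess. The number of arrays, and signals near background for 5 of 12 probes, limit what could be called.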
